A study of Mus musculus with 6 samples.

Results

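Regulatory T cells act on their surroundings partly through molecules they secrete. Among the genes for such products, 7 are described here in regulatory T cells of the mouse bone marrow. They are Il10, Ebi3, Il12a and Fgl2, whose products dampen immune responses, Areg and Penk, which are linked to tissue repair and sensory signalling, and Il1rn, which blocks interleukin-1. The 7 genes were chosen by name with earlier results of these data known, so counts among them are a description and not a test of the set. All 7 are among the 47643 genes in the tables. Of the 7, 6 had enough counts to be tested, along with 13235 genes in all, and Il12a did not.

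RNA was sequenced from CD4+ cells carrying a GFP reporter of FOXP3, the transcription factor that defines regulatory T cells, sorted by flow cytometry from bone marrow. The myeloma group comes from 3 mice injected with Vk*MYC cells, which grow as multiple myeloma, a cancer of plasma cells, and its libraries carry replicate numbers 3, 4 and 5. The control group comes from 3 control mice, with replicate numbers 1, 3 and 5. Both groups carry the same sorting reporter, and the labels do not say how the controls were handled, nor the strain, age, sex or time after injection. Total expected counts ran from 10240620 to 13314631 per library.

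Interleukin-10 is a homodimer that signals through the receptor chains Il10ra and Il10rb to JAK kinases and STAT3, and restrains myeloid and T cells. Ebi3 is a chain that pairs with Il12a to form interleukin-35 or with Il27 to form interleukin-27, and Il12a pairs with Il12b to form interleukin-12. Fgl2 is a fibrinogen-like protein that regulatory T cells secrete and that binds the low-affinity Fc receptors Fcgr2b and Fcgr3. Amphiregulin, the product of Areg, is made as a membrane precursor, released by the protease Adam17 and read by the receptor Egfr, and it is known for the repair function of regulatory T cells in tissues. Proenkephalin, the product of Penk, is cut by prohormone convertases into opioid peptides. The product of Il1rn occupies the receptor Il1r1 without activating it.

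In myeloma marrow, Fgl2 was 2.95-fold and Ebi3 2.35-fold higher, and both passed the quasi-likelihood test of edgeR, adjusted over all genes tested by the Benjamini-Hochberg method. Penk and Il1rn were at log2 fold changes of 1.62 and 2.29 but missed the threshold of 0.05 narrowly, with edgeR adjusted p = 0.0543 and 0.0553. Il10 (1.20) and Areg (-1.31) were not called, and Il12a was close to the detection limit. Thus 2 of the 6 mediators tested were called higher and 0 lower, where 6.33% of all genes tested were called higher and 4.69% lower. At an unadjusted p under 0.05 edgeR had 4 higher and 0 lower, DESeq2 called 3 higher and 0 lower, and limma-voom 4 higher and 0 lower. Over all genes, DESeq2 called 996 higher and 872 lower in a fit of 26583, and limma-voom 791 and 586 of 13235. DESeq2 does not give every fitted gene an adjusted p (Il12a had none), so 26583 is not its number of genes tested. The share of all genes at an unadjusted p under 0.05 is not given here. The 3 myeloma values lay above all 3 control values for 5 of the 6 mediators tested, where 17.3% of all genes tested were separated in this direction. The median log2 fold change was 1.40 over the 6 mediators and 0.02 over all genes tested.

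**Figure D1:**
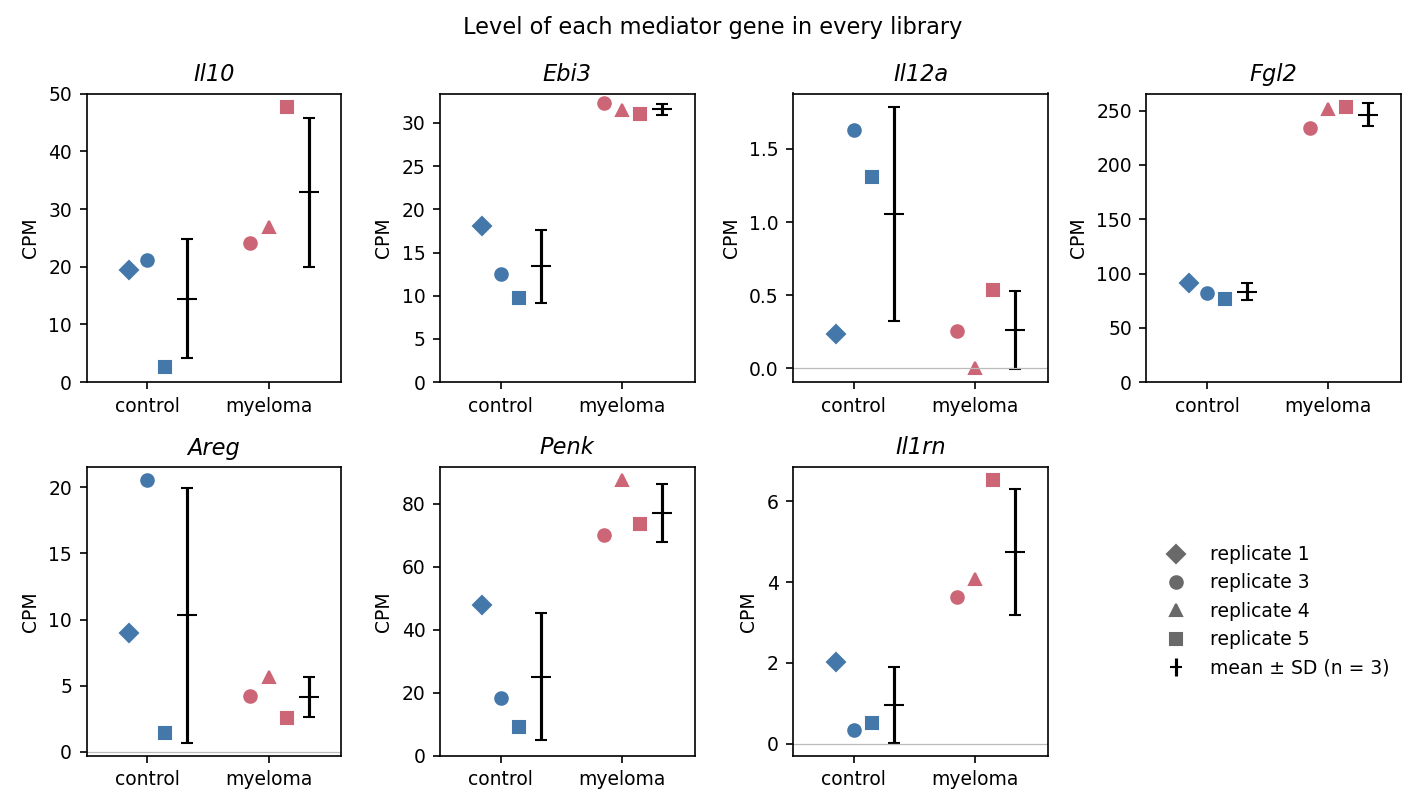
CPM (reads scaled to library size, linear axis) of each of the 7 mediator genes in every library, with the group mean and SD beside the points. Fgl2 forms tight, separate groups, and Ebi3 separate groups that are tight in myeloma and more spread in controls. The control libraries are spread widely for Il10, Penk and Areg.

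The 3 sequences below are shown because they show the region before the start of the mediators that were called or nearly called. Promoter windows run from 250 bases before to 50 bases after the RefSeq start and were matched for 5 of the 7 genes, on GRCm38.p6 (Il10 and Penk were not matched). They were searched on both strands for 2 copies of GAAA separated by 2 bases, the core of the interferon-stimulated response element, for TTCNNNGAA, a site of STAT factors, and for TGANTCA, a site of AP-1 factors. Among 32851 windows of the same length, 3.44% held the first, 8.30% the second and 7.81% the third. Capitals mark the matches, which do not overlap each other.
Fgl2, chr5:21372423-21372722, plus strand: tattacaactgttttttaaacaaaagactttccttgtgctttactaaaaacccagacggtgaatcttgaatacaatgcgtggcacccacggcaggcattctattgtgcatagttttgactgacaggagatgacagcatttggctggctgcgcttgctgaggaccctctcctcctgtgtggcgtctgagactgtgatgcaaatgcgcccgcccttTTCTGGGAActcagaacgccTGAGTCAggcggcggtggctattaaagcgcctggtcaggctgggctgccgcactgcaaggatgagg
Il1rn, chr2:24336610-24336909, plus strand: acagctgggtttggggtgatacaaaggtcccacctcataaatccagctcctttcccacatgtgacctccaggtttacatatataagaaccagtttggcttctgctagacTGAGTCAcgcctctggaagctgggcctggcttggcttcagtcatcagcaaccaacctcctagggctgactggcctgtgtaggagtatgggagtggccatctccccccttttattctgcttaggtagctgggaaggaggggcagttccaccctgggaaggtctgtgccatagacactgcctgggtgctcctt
Ebi3, chr17:55952373-55952672, plus strand: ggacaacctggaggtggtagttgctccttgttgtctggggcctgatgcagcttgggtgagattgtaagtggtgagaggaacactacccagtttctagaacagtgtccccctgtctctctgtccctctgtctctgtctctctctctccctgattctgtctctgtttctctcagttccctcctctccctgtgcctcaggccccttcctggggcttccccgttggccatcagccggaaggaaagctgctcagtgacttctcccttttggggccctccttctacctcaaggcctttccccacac
The Fgl2 window holds TTCTGGGAA, which begins 36 bases before the RefSeq start, and TGAGTCA, which begins 16 bases before it. The GENCODE start of Fgl2, 21372642, lies further upstream, within TTCTGGGAA and before TGAGTCA. The Il1rn window, the first of 3 for that gene, holds TGAGTCA 141 bases before its start. The windows of Ebi3, Areg and Il12a and the other 2 of Il1rn hold none of these letters, and no mediator window held the interferon element. A match describes the letters and is not evidence that a factor binds there.

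Fgl2 (ENSMUSG00000039899.5, 5:21372642-21378374 in mm10, protein coding) was at 234, 251 and 253 CPM in myeloma replicates 3, 4 and 5. The controls were at 91.3, 82.5 and 76.5 CPM in replicates 1, 3 and 5. The lowest myeloma library was thus far above the highest control, and the spread within each group was small. The means were 246 ± 10.5 CPM (SD, n = 3) in myeloma and 83.4 ± 7.44 CPM (n = 3) in controls. The log2 fold change was 1.56 (95% interval 1.35 to 1.77, edgeR adjusted p = 5.31e-05), and it was called whichever library was left out. Fgl2 lies inside Ccdc146, a gene on the opposite strand, and the library kit does not mark strand. Ccdc146 had at most 7 expected counts in any library, against 960 to 2832 for Fgl2.

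Ebi3 (ENSMUSG00000003206.6, 17:55952640-55957022, protein coding) was almost identical in the 3 myeloma libraries, at 32.3, 31.5 and 31.0 CPM. The controls were at 18.0, 12.5 and 9.73 CPM in replicates 1, 3 and 5. All myeloma values lay above the highest control, which was replicate 1. The log2 fold change was 1.23 (95% interval 0.77 to 1.70, edgeR adjusted p = 0.00847), and it stayed called without any one library, at adjusted p of at most 0.0432 by edgeR. Ebi3 overlaps the antisense gene Gm16712, whose reads cannot be told apart from its own by strand. RSEM assigned Gm16712 58.4 to 90.5 expected counts in myeloma and 45.2 to 47.4 in controls, against 317 to 381 and 134 to 231 for Ebi3.

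Il12a (ENSMUSG00000027776.12, 3:68690644-68698547, protein coding), the partner of Ebi3 in interleukin-35, was near the detection limit. It had 3, 0 and 6 counts in myeloma replicates 3, 4 and 5 and 3, 19 and 18 counts in control replicates 1, 3 and 5. The 0 in myeloma replicate 4 allows up to 3 counts, or 0.298 CPM, as a one-sided limit. The 19 counts of control replicate 3 have a two-sided exact Poisson 95% interval of 11.4 to 29.7. Such limits cover counting error only. Control replicate 1 lay with the myeloma libraries, so the groups overlapped. The means were 0.263 ± 0.268 CPM in myeloma and 1.06 ± 0.731 in controls, a log2 ratio of means of -2.01 for which no test was run in the main analysis. Without myeloma replicate 5 the ratio was -3.06. In a fit with no low-count filter Il12a was tested and not called (log2 fold change -1.97, edgeR adjusted p = 0.345). Of the 2 chains of interleukin-35, Ebi3 was thus called higher, and no direction was established for Il12a.

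Set per transcript length, in the deposited TPM values, Ebi3 was at 44.9, 42.3 and 39.1 in myeloma, while Il12a was at 0.78, 0, and 0.61. In control replicates 1, 3 and 5 the levels were 29.0, 18.6 and 16.1 TPM for Ebi3 and 0.33, 2.19 and 1.96 for Il12a. The level of Ebi3 exceeded that of Il12a by 57.6 and 64.1 times in myeloma replicates 3 and 5 and by 87.9, 8.47 and 8.19 times in control replicates 1, 3 and 5. The other partner of Ebi3, Il27, was at 0 CPM in 4 libraries and reached 0.804 CPM in myeloma replicate 5. Il12b, the partner of Il12a in interleukin-12, was at 0 counts in all 6 libraries.

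Il10 (ENSMUSG00000016529.5, 1:131019845-131024974, protein coding) was at 24.0, 26.9 and 47.8 CPM in myeloma replicates 3, 4 and 5. The controls were at 19.5, 21.2 and 2.61 CPM in replicates 1, 3 and 5. The groups did not overlap, but control replicates 1 and 3 came close to the lower myeloma libraries and control replicate 5 stood far below. The means were 32.9 ± 13.0 CPM (SD, n = 3) and 14.4 ± 10.3 CPM (n = 3), and the log2 fold change of 1.20 had a 95% interval of -0.11 to 2.50 (edgeR adjusted p = 0.215). That interval holds 0 and also a change as large as that of Fgl2. Without control replicate 5 the log2 fold change was 0.68 (edgeR adjusted p = 0.216) and without myeloma replicate 5 it was 0.82 (0.416), so its size rested on 1 library in each group.

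Penk (ENSMUSG00000045573.9, 4:4133531-4138819, protein coding) was at 70.2, 87.5 and 73.5 CPM in myeloma replicates 3, 4 and 5 and at 47.8, 18.3 and 9.07 CPM in control replicates 1, 3 and 5. The myeloma libraries were close together and all above the controls, whose highest library was 5.27 times the lowest. The log2 fold change was 1.62 (SE 0.46, 95% interval 0.58 to 2.66, edgeR adjusted p = 0.0543). Without control replicate 1 it was 2.49 and called (edgeR adjusted p = 0.00188). That library held 613 counts of Penk (exact Poisson 95% interval 565 to 664), against 213 (185 to 244) and 125 (104 to 149) in control replicates 3 and 5. Penk overlaps the noncoding gene A830012C17Rik on the opposite strand, which had 5 to 22.1 expected counts per library.

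Il1rn (ENSMUSG00000026981.15, 2:24336853-24351494, protein coding) was low, at 3.64, 4.07 and 6.52 CPM in myeloma replicates 3, 4 and 5, from 43, 41 and 73 counts. The controls were at 2.03, 0.344 and 0.508 CPM in replicates 1, 3 and 5, from 26, 4 and 7 counts. The groups did not overlap, and the 4 counts of control replicate 3 have an exact Poisson 95% interval of 1.09 to 10.2. The log2 fold change was 2.29 (95% interval 0.82 to 3.76, edgeR adjusted p = 0.0553). Without control replicate 1 it was 3.42 and called (edgeR adjusted p = 0.0137), and DESeq2 called it on all 6 libraries (adjusted p = 0.00571).

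Areg (ENSMUSG00000029378.5, 5:91139599-91148432, protein coding) was the 1 mediator tested whose groups overlapped. It was at 4.23, 5.66 and 2.59 CPM in myeloma replicates 3, 4 and 5 and at 8.97, 20.5 and 1.45 CPM in control replicates 1, 3 and 5. The controls thus held both the highest and the lowest value, 14.1 times apart. The log2 fold change was -1.31 (95% interval -2.97 to 0.35, edgeR adjusted p = 0.287) and ran from -1.83 without control replicate 5 (0.0598) to -0.33 without control replicate 3 (0.846).

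**Figure D2:**
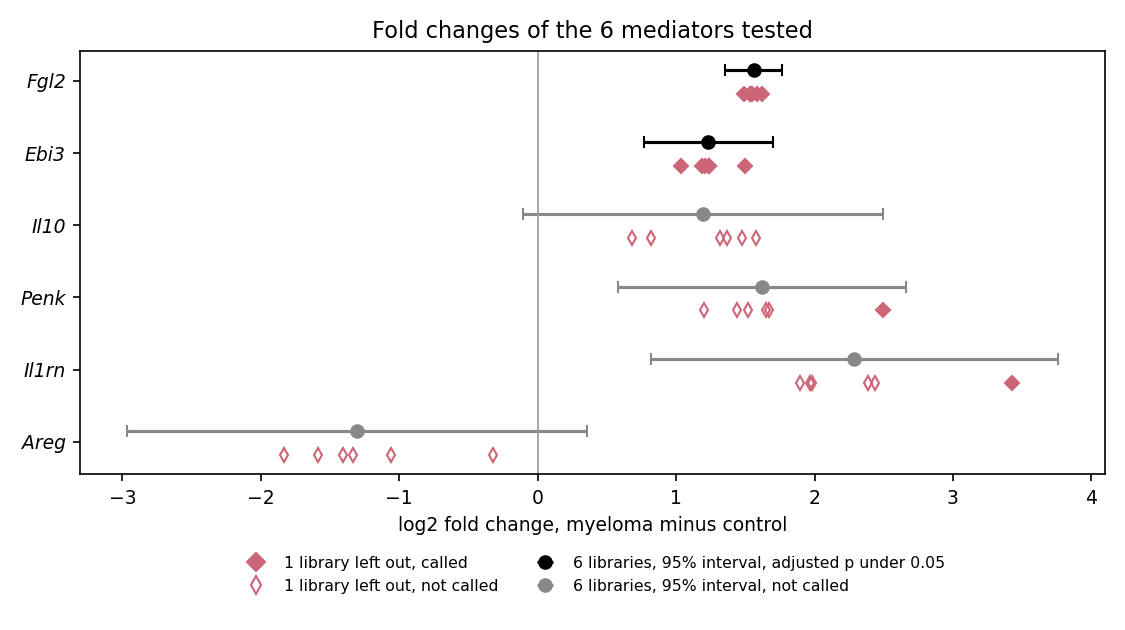
Log2 fold changes (myeloma minus control, horizontal axis) of the 6 mediators tested, with 95% intervals from edgeR's fit on 6 libraries above and the 6 fits that each leave out 1 library below. Fgl2 and Ebi3 were called in all of these fits, Penk and Il1rn in the fit without control replicate 1, and Il10 and Areg in none.

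On the log2 scale, the control libraries differed among themselves more than the myeloma libraries for every mediator tested. In CPM the SD was larger in myeloma for Il10, Fgl2 and Il1rn and larger in controls for Ebi3, Areg and Penk. The SD of log2 CPM among controls was 1.67 for Il10, 1.88 for Areg, 1.19 for Penk and 1.12 for Il1rn, where the median gene had 0.17. These 4 lay between percentile 97.5 and 99.6 of all genes tested. In myeloma the same SD was 0.53 for Il10, 0.54 for Areg, 0.17 for Penk and 0.43 for Il1rn, with a median gene of 0.19. Control replicate 1 had the highest control value for Ebi3, Fgl2, Penk and Il1rn, and control replicate 5 had the lowest for 5 of the 6, all but Il1rn. Over all genes tested, control replicate 1 was the highest control in 34.3% and control replicate 5 the lowest in 35.2%.

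Compared per transcript length, Penk and Fgl2 had the highest levels in myeloma, at 101 ± 19.4 and 88.4 ± 3.01 TPM (SD, n = 3), and their ranges overlapped. Ebi3 (42.1 ± 2.91 TPM) and Il10 (37.8 ± 12.8 TPM) followed and also overlapped. Areg (5.35 ± 2.10 TPM), Il1rn (3.62 ± 1.13 TPM) and Il12a (0.463 ± 0.410 TPM) came last, and the ranges of Areg and Il1rn overlapped. In controls the order of the means was Penk (38.5 ± 33.8 TPM), Fgl2 (35.7 ± 3.80), Ebi3 (21.2 ± 6.88), Il10 (19.6 ± 13.7), Areg (15.1 ± 13.4), Il12a (1.49 ± 1.01) and Il1rn (1.41 ± 1.68). There the ranges of Penk and Fgl2, of Ebi3 and Il10, of Il10 and Areg and of Il12a and Il1rn overlapped, while Fgl2 lay above Ebi3 in every library. The 7 levels summed to 262, 299 and 275 TPM in myeloma replicates 3, 4 and 5 and to 191, 135 and 72.7 TPM in control replicates 1, 3 and 5. Penk made up 32.5% to 41.2% of that sum in myeloma and 40.3%, 18.1% and 19.2% in control replicates 1, 3 and 5.

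**Figure D3:**
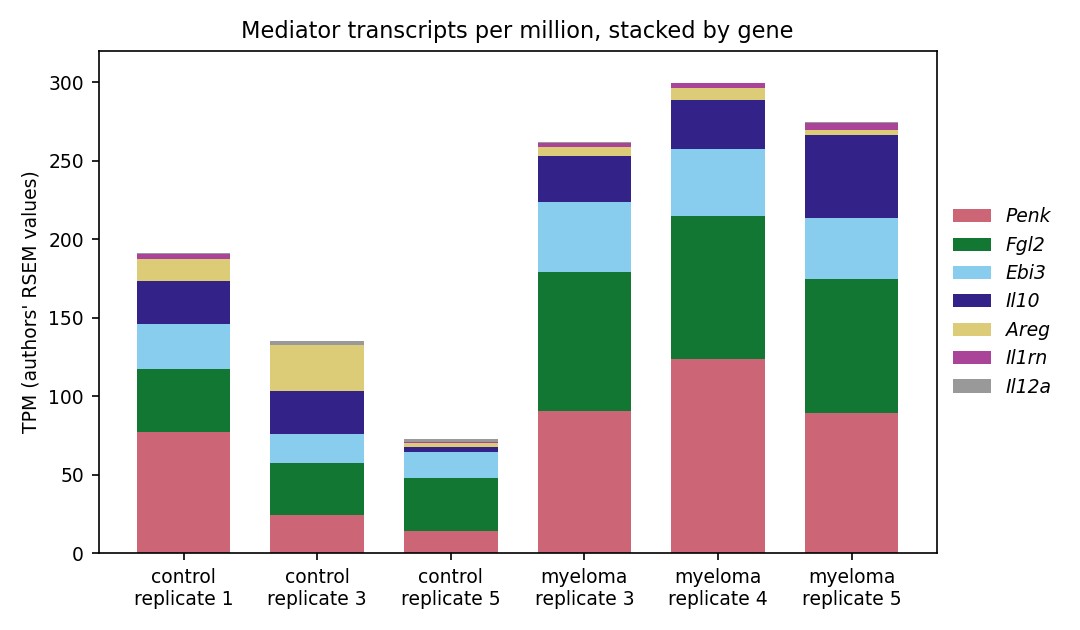
Levels of the 7 mediators in TPM (linear axis from 0), stacked by gene, for each library. The sum is between 262 and 299 TPM in the myeloma libraries and between 72.7 and 191 TPM in controls, and the thickest Areg layers are in control replicates 1 and 3.

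A bulk library cannot tell apart fewer cells that express a gene and less RNA in each of them. The sorted cells carried the defining genes of their label: the 7 regulatory T cell markers, among them Foxp3, Cd4 and Il2ra, summed to 4685 to 4913 CPM in myeloma and 4178 to 5595 in controls, and 1 of the 7, Tnfrsf18, was called higher (log2 fold change 0.69, edgeR adjusted p = 0.00776). Genes of other marrow cells were also present. For the 12 macrophage and monocyte markers, myeloma replicates 3, 4 and 5 had summed levels of 80.8, 174 and 555 CPM, and control replicates 1, 3 and 5 had 141, 57.2 and 100.4 CPM. Of the 11 tested, edgeR called 2 higher and had 8 higher at an unadjusted p under 0.05, DESeq2 called 3 and limma-voom 0. Of all genes tested, edgeR called 6.33% higher and 4.69% lower. No macrophage marker was at 0 in all libraries.

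Macrophages also make Il1rn, Fgl2 and Il10. In myeloma replicate 3 the sum of their markers was within the control range, although C1qa (9.73 CPM against at most 9.52 in controls) and Fcgr1 (1.27 against at most 0.726), the 2 called, were above it, while Fgl2 (234 CPM) and Il1rn (3.64 CPM) were above every control. Across the myeloma libraries Fgl2 went from 234 to 253 CPM while those markers went from 80.8 to 555 CPM. Il10 and Il1rn were both highest in myeloma replicate 5, the library with the most macrophage marker RNA, and the part of those cells in the levels of Il10, Il1rn and Fgl2 was not tested. Il1b, an inflammatory cytokine of myeloid cells, was at 29.9 CPM in that library and at no more than 0.780 CPM in the others.

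Plasma cells, the cell type of the tumour, are known to make Ebi3 and Il10. For their 6 markers, myeloma replicates 3, 4 and 5 had summed levels of 106, 231 and 364 CPM, and the controls had 62.2 to 78.7 CPM. Of the 5 tested, edgeR called 2 higher and had 5 higher at an unadjusted p under 0.05, DESeq2 called 2 and limma-voom 0. For this list and those below, the shares that edgeR called over all genes tested were 6.33% higher and 4.69% lower. Over the same 3 libraries Ebi3 was between 31.0 and 32.3 CPM, whereas Il10, at 24.0, 26.9 and 47.8 CPM, ran in the same order as these markers. The part of plasma cells in the levels of both genes was not tested. The 7 B cell markers summed to 26.6 to 66.4 CPM in myeloma and to 42.6, 212 and 271 CPM in control replicates 1, 3 and 5, with 4 of 7 called lower by edgeR, 4 by DESeq2 and 1 by limma-voom. Il12a also had more counts in control replicates 3 and 5 than in control replicate 1, and the part of B cells in those counts was not tested. The 10 neutrophil markers summed to 140 to 475 CPM in myeloma and 65.3 to 191 in controls, with 0 of 10 called by edgeR, 5 higher at an unadjusted p under 0.05 and 1 called by DESeq2. The 5 red cell markers summed to 2482 to 3026 CPM in myeloma and to 4333, 9582 and 6547 CPM in control replicates 1, 3 and 5, with 4 of 5 called lower. The control with the least red cell RNA, replicate 1, was also the highest control for Ebi3, Fgl2, Penk and Il1rn, and the part of red cell RNA in these values was not tested. Markers of dendritic, NK, CD8 T and basophil cells summed to at most 76.3 CPM per list in any library. Of these, 3 of 7, 3 of 8, 2 of 2 and 2 of 7 were tested, and none was called. At an unadjusted p under 0.05 edgeR had 2, 2, 1 and 0 of them higher.

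**Figure D4:**
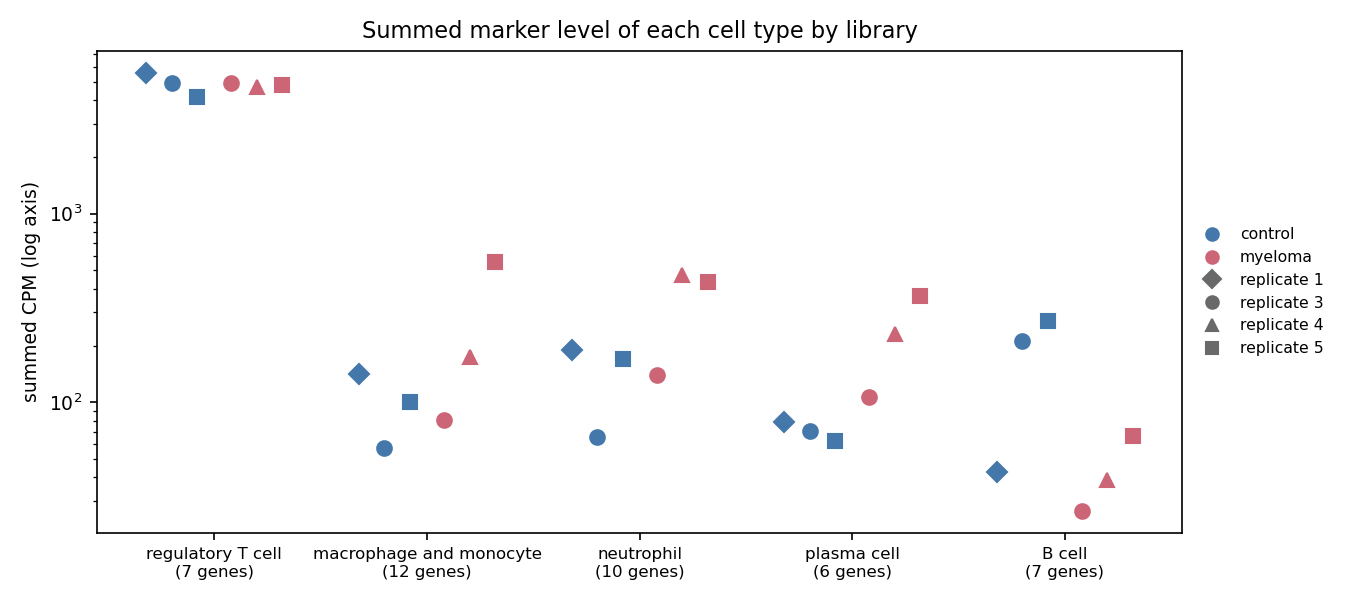
Summed CPM (log axis) of the marker genes of 5 cell types in each library. The sum of regulatory T cell markers is between 4178 and 5595 CPM in all libraries, macrophage and plasma cell markers are highest in myeloma replicate 5 and B cell markers are highest in control replicates 3 and 5.

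The receptors that would read these mediators were compared in the same cells. None of the 8 receptor chains tested (of 14) was called by edgeR, against 11.0% of all genes in either direction. At an unadjusted p under 0.05 edgeR had 3 higher and 1 lower, DESeq2 called 2 higher and limma-voom 1. The interleukin-10 receptor was present on both chains: Il10ra was at 238, 202 and 209 CPM in myeloma replicates 3, 4 and 5 and at 182, 178 and 140 CPM in control replicates 1, 3 and 5. The myeloma values were all above the controls, at a log2 fold change of 0.38 (edgeR adjusted p = 0.0722, called only by DESeq2 at 0.0262 and in a fit with no low-count filter). Il10rb was at 90.7 to 95.6 CPM in myeloma and 87.1 to 92.1 in controls. Of the chains that bind interleukin-35 and interleukin-27, Il27ra was at 217 to 242 and 224 to 248 CPM, Il6st at 196 to 240 and 247 to 284 CPM, and Il12rb2 at no more than 0.893 CPM.

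The interleukin-1 receptor genes were uneven. Il1r1, the signalling receptor that the product of Il1rn blocks, reached no more than 1.40 CPM, whereas Il1r2, a decoy receptor that binds interleukin-1 without signalling, was at 18.7, 14.4 and 17.6 CPM in myeloma replicates 3, 4 and 5. In control replicates 1, 3 and 5 Il1r2 was at 9.75, 2.84 and 1.96 CPM. The groups did not overlap, and as for Penk and Il1rn the highest control was replicate 1. Its log2 fold change was 1.80 (SE 0.51, edgeR adjusted p = 0.0530), and without control replicate 1 it was 2.81 and called (edgeR adjusted p = 0.00168). It was 1.53 (0.169) without control replicate 3 and 1.41 (0.124) without control replicate 5, not called in either fit by edgeR. Leaving out 1 myeloma library also gave no call (0.0765 to 0.124 by edgeR). On all 6 libraries, DESeq2 (adjusted p = 0.000832) and limma-voom (0.0168) called Il1r2. So did edgeR with the replicate block (0.00850) and with no low-count filter. Il1a was at no more than 0.714 CPM in any library.

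The Fc receptors of Fgl2 were low: Fcgr2b was at 1.44, 3.57 and 9.82 CPM and Fcgr3 at 2.03, 3.47 and 9.82 CPM in myeloma replicates 3, 4 and 5, in the same order as the macrophage markers. In control replicates 1, 3 and 5 Fcgr2b was at 1.33, 5.24 and 6.03 CPM, in the order of the B cell markers and not of the macrophage markers, and Fcgr3 was at 1.87, 1.20 and 1.89 CPM. The part of either cell type was not tested. Egfr, the receptor of amphiregulin, reached 0.312 CPM, and the opioid receptors Oprd1, Oprm1 and Oprk1 reached 0.397, 0.344 and 0.468 CPM. These 4 receptors were therefore below the filter in the sorted cells.

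None of 5 tested partner chains and rival ligands and none of 8 tested shedding and processing genes was called by edgeR, with 0 and 1 at an unadjusted p under 0.05 and 0 called by DESeq2 or limma-voom. Of all genes tested, edgeR called 11.0% in either direction. Adam17, which releases amphiregulin, was at 91.6 to 102 CPM in myeloma and 88.5 to 98.6 in controls. Pcsk1, a convertase that cuts proenkephalin, is given here after its values were seen: it was at 1.44, 1.09 and 1.16 CPM in myeloma and 0.312, 0.344 and 0.218 CPM in controls (log2 fold change 2.05, edgeR adjusted p = 0.0591). The values do not overlap, at a level of few counts.

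Transcription factors that act on the Il10 locus moved both ways: 3 of 16 were called higher, 3 lower and 10 not, with a median log2 fold change of 0.07. Of all genes tested, 6.33% were called higher and 4.69% lower. Tbx21, which encodes T-bet, was at 28.6 ± 6.31 CPM (SD, n = 3) against 7.17 ± 2.92 (log2 fold change 1.99, edgeR adjusted p = 0.00416). Maf, an activator of Il10 in T cells, was at 400, 344 and 450 CPM in myeloma replicates 3, 4 and 5 and at 273, 199 and 172 CPM in control replicates 1, 3 and 5. Its log2 fold change was 0.89 (edgeR adjusted p = 0.0133), and it lost its call without control replicate 3 (0.0655). Batf, an AP-1 family factor of effector regulatory T cells, rose by 0.83 on the log2 scale. Bach2, a repressor that keeps T cells in a resting state, fell by 1.05 on the log2 scale (edgeR adjusted p = 0.00447). Prdm1, which encodes Blimp-1 and is given after its values were seen, was at 0.74 (0.0568) and was called without control replicate 1 (0.98, 0.0189). No other fit that left out 1 library called Prdm1. On all 6 libraries, DESeq2 (adjusted p = 0.00222) and limma-voom (0.0410) called it. So did edgeR with the replicate block (0.0229) and with no low-count filter.

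Of 10 genes for interleukin-10 receptor signalling and response, 4 rose and 2 fell, and the median log2 fold change was 0.29. The shares called over all genes tested were 6.33% higher and 4.69% lower. The feedback inhibitors Socs1 (1.58) and Socs3 (0.38) were among those called higher. Bcl3, an atypical NF-kB inhibitor, was at 1.13 (edgeR adjusted p = 0.00163). Stat3 itself was at 297 to 320 CPM in myeloma and 217 to 274 in controls and was not called (log2 fold change 0.30, edgeR adjusted p = 0.0866). Socs1 was no longer called without control replicate 3 (0.0635), myeloma replicate 3 (0.0604) or myeloma replicate 4 (0.0601), and Socs3 without control replicate 1 (0.0567) or 3 (0.0911) or myeloma replicate 3 (0.0790).

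Among 16 genes of tissue-repair regulatory T cells, the setting in which amphiregulin is best known, 4 rose, 1 fell and 11 were not called (median log2 fold change 0.17). Of all genes tested, 6.33% were called higher and 4.69% lower. Klrg1, a receptor of differentiated effector cells, was at 1.25 (edgeR adjusted p = 0.00299) and Itgae, the integrin chain CD103, at 0.71 (0.0123, and 0.0556 without myeloma replicate 4). Nrp1, a surface receptor of thymus-derived regulatory T cells, fell by 0.56 on the log2 scale. Il1rl1, the receptor for interleukin-33 that drives amphiregulin, was at 142 to 195 CPM in myeloma and 138 to 165 in controls, and Gata3 at 216 to 239 and 207 to 255 CPM, neither of them called. Of 13 other suppressive mediators 6 rose and 1 fell (median 0.78), beside the same shares of all genes. Those that rose include granzyme B (Gzmb, log2 fold change 2.89), the galectins Lgals1 (0.88) and Lgals9 (0.70) and the growth factor progranulin (Grn, 1.80). Lrrc32, given here after its values were seen, was the 1 that fell (log2 fold change -0.98, edgeR adjusted p = 0.0422). Lgals9 lost its call without control replicate 3 (edgeR adjusted p = 0.0632), and Grn without control replicate 3 (0.0592) or 5 (0.0618). Grn was at 146 CPM in myeloma replicate 5 against 56.5 and 58.2 in the other myeloma libraries, in which macrophage markers were also lower.

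**Figure D5:**
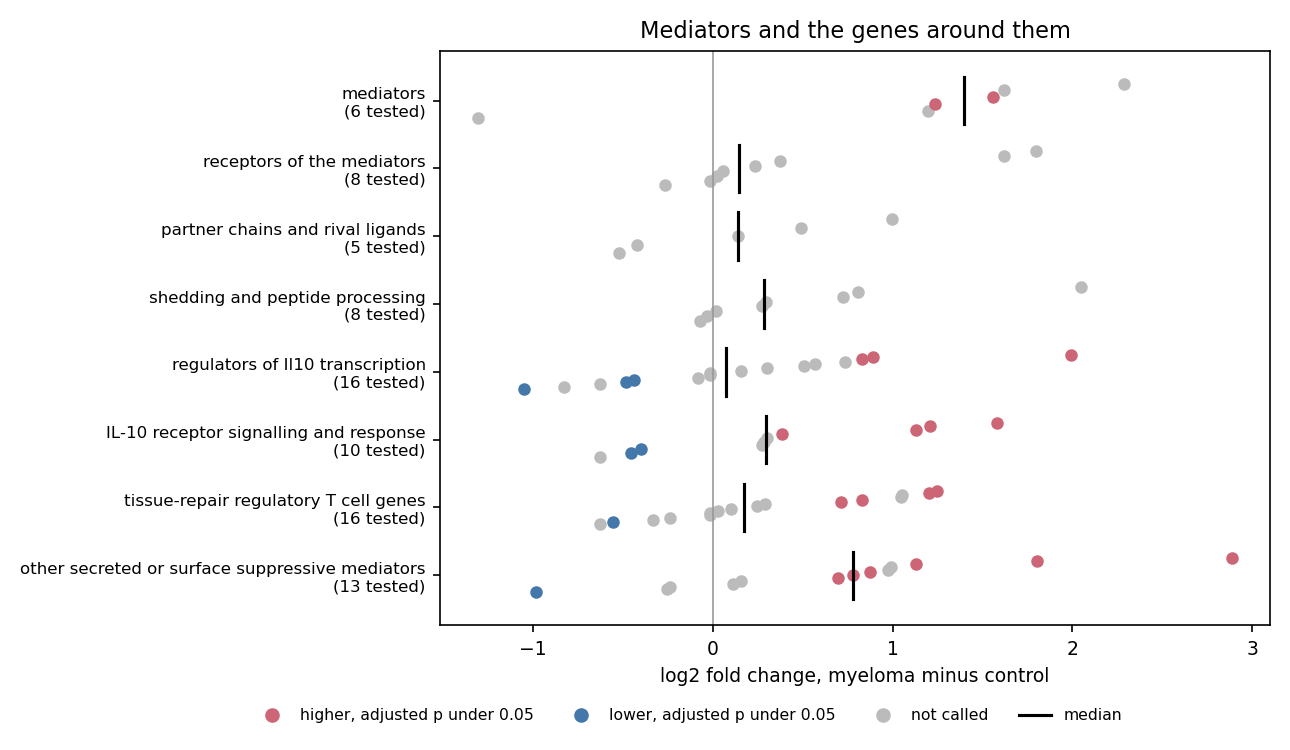
Log2 fold changes (myeloma minus control) of all tested genes in the mediator set and 7 lists around it, 1 point per gene, with the median of each list as a black bar. The mediators have a median of 1.40, the receptors of the mediators 0.15 with none called, and the regulators of Il10 include genes called in both directions.

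Finally, the genes with the most similar pattern over the 6 libraries were listed for each mediator tested, by the root mean square difference of standardised log2 CPM. For Ebi3 the nearest were Glrx (0.05), Tnfrsf4 (0.06), which encodes the costimulatory receptor OX40, and Asb2 (0.06), and all 3 were called higher. For Penk they were Naip5 (0.05), Tnfrsf9 (0.06), which encodes the costimulatory receptor 4-1BB, and Cst7 (0.07). Tnfrsf9 was at 225, 247 and 219 CPM in myeloma replicates 3, 4 and 5 and at 161, 82.5 and 56.6 CPM in control replicates 1, 3 and 5, the same order of controls as Penk. For Fgl2 they were Psme1 (0.07), a subunit of the proteasome activator, Eif3k (0.09) and the class I heavy chain gene H2-D1 (0.09).

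For Areg the nearest was Nfil3 (0.18), a basic leucine zipper factor, at 21.3, 24.0 and 18.7 CPM in myeloma and 38.5, 49.8 and 10.7 CPM in control replicates 1, 3 and 5, followed by Ppa2 (0.20) and Dqx1 (0.21). Areg and Nfil3 were thus both highest in control replicate 3 and lowest in control replicate 5. For Il1rn the nearest were Wdfy1 (0.09), the chemokine receptor gene Cxcr3 (0.11) and Pgm1 (0.14), and for Il10 they were Ugp2 (0.11), Susd3 (0.13) and Rab5a (0.16). The neighbours of Il10 differ little in level, with Ugp2 between 37.1 and 49.8 CPM. The measure compares the shape of the standardised pattern and not the size of the change. With 6 libraries in 2 groups, such likeness is a description.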

How the data were processed

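Libraries of the sorted cells were made with the NEBNext Ultra RNA kit, which does not mark strand, per the labels' protocols. The submitters' processing notes name STAR, RSEM, Picard, DESeq2 and the build mm10. No version of these is given in the sources used here. The deposited expected counts, which RSEM estimates for each gene, are not normalized, per the file headers. The deposited TPM values are scaled for effective length and library total by the authors' RSEM run, per the file headers, and entered no test.

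Genes were matched by Ensembl identifier (47224 of 47643 had a reference name). Gene positions follow GENCODE release M21 (GRCm38) and count from 1. Rounded expected counts went into edgeR 4.0.16 under R 4.3.3. Its filterByExpr kept 13235 genes (minimum count 10, minimum total 15), TMM gave the scaling factors, and glmQLFTest on a glmQLFit model compared myeloma with control. P-values were adjusted by the Benjamini-Hochberg method over those genes, with a threshold of 0.05. CPM uses the TMM-scaled library sizes. The SE is the log2 fold change divided by the square root of F, and the 95% interval uses the fit's degrees of freedom. No label ties libraries to separate days beyond 3 mice per group. The p-values therefore reflect only how these libraries vary, in which differences between mice and technical differences cannot be told apart. The script was tested on simulated data first.

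The 7 genes and the lists around them were chosen with earlier results of these data known. Named are all 7, up to 4 called genes with the smallest p per list, the receptors and partner chains, and for each mediator tested the 3 genes nearest in pattern (mean of at least 5 CPM). Lists share members, such as Batf. A gene that this rule names is not reported here. Alternatives were DESeq2 1.42.0, limma-voom (limma 3.58.1), RLE factors or plain library sizes as scaling, a filter of 1 CPM in 3 samples or none, a block for the replicate number, and each library left out in turn.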

Additional observations from a re-analysis of the deposited data

How the results depend on the processing

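Fgl2 and Ebi3 kept their direction and call under all alternatives run, with log2 fold changes of 1.49 to 1.62 and 1.03 to 1.52, and no mediator changed sign. Penk was called with limma-voom (1.96), the replicate block (2.46) and no low-count filter (1.61), and ranged from 1.20 to 2.49 when 1 library was left out. Il1rn was called with DESeq2 (2.29), limma-voom (2.60), the replicate block (3.53) and no filter (2.27), and ranged from 1.90 to 3.42. Il10 (1.18) and Areg (-1.32) were called only with no filter. That fit also calls genes whose groups overlap, as Areg's do. Il12a ranged from -3.06 to -1.42 without 1 library. Mediators called higher numbered 5 with no filter, 4 with limma-voom, 4 with the replicate block and 2 to 4 without 1 library, and 1 was called lower with no filter. In the same fits, 1337 of 26583 genes were called higher and 1102 lower with no filter. Of 13235 genes, 791 were called higher with limma-voom and 362 with the replicate block. The cause of the changes in these calls was not tested.

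Over all genes, 838 were called higher and 621 lower. The counts were 1337 and 1102 with no filter, 633 and 1004 with library sizes alone, and 362 and 142 with the replicate block. They ran from 331 to 836 and from 123 to 546 without 1 library, in fits with fewer samples. The groups share numbers 3 and 5 only, no label says that a number pairs mice, and deviations of same-numbered libraries correlated at 0.03 and 0.10, so the block shares a number and no more. Under the block Socs1 (edgeR adjusted p = 0.0836), Socs3 (0.111) and Itgae (0.0957) lost their calls. For 21 genes of the lists around the mediators, 245 of 273 alternative fits kept direction and call, 14 lost and 14 gained it, and 0 changed sign. Il12a, Il1rn and Pcsk1 rest on few counts, which limits what could be detected for them.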
